A study of Glycine max with 16 samples.

Results

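Lipoxygenases and vegetative storage proteins of the soybean leaf were followed through 4 states of a warming curve. They were taken as the probe sets that the array's annotation pairs with exactly 1 gene whose symbol or synonym starts with LOX and a digit, with LOXB, or with VSP. A probe set is a group of short probes read together as 1 signal. The rule gave 11 genes with 36 probe sets, out of 6031 genes with 8677 probe sets that the annotation pairs with 1 gene and 61170 probe sets on the array. The symbol itself chose 26 of them, and a synonym alone chose 10 probe sets of 3 genes. These 3 genes are LOX1.4, whose synonyms include loxA, VLXB, whose synonyms include lox8 and loxB2, and VSPB. VSPA had 8 probe sets, LOX9 and LOX1.4 had 5 each, LOX7 and LOXB1 had 4 each, VSPB had 3, LOX3 and VLXB had 2 each, and LOX10, LOX1.1 and LOX2 had 1 each.

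Each of the 16 arrays measured total RNA from a leaf, the first that had fully expanded, of Glycine max 'Williams 82', grown at 22 °C with a 10 h photoperiod and with no transgene or other genotype named in the labels. Each of the 4 states had 4 arrays from plants collected at random: baseline at the growth temperature, the photosynthetic optimum, and inhibition of photosynthesis by 20% and by 30% of that optimum. Temperature went up in steps of 2 °C per 10 min, over a range of 22 to 42 °C, leaves were sampled after a further 20 to 30 min, and a curve took 3 to 4 h, so temperature and elapsed time moved together. The labels do not say whether a plant gave leaves at more than 1 state, and the p-values below measure the spread between arrays.

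Lipoxygenases add oxygen to polyunsaturated fatty acids. The hydroperoxides they make feed several branches of oxylipin metabolism, among them jasmonate synthesis through allene oxide synthase and cyclase, and volatile aldehydes through hydroperoxide lyase. Vegetative storage proteins are vacuolar glycoproteins of the acid phosphatase family that build up in soybean leaves as a nitrogen store and are known as jasmonate-responsive products. The families meet in LOXB1, which also carries the name VSP94, a lipoxygenase that accumulates in leaves in the manner of a storage protein. LOX1.1, LOX2 and LOX3 are known as the lipoxygenases of the seed. In the RefSeq annotation of the assembly Glycine_max_v4.0, LOX2, LOX1.1, LOXB1 and LOX7 follow each other on chromosome 13 with 0 protein-coding genes between neighbours. LOX3 and VLXB lie on chromosome 15 with 1 protein-coding gene between them.

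Values are MAS5 signals, the linear intensity that the Affymetrix algorithm gives per probe set and array, as mean ± SD over n = 4 arrays. Changes are differences of log2 signal ± the standard error of a limma fit over all 16 arrays. Adjusted p-values are limma's, after Benjamini-Hochberg adjustment over the 30517 probe sets whose mean log2 signal lay above the median of 6.08, and 0.05 was the threshold. In whole leaves, fewer cells of a type and less RNA per cell cannot be told apart. Each array's background was set as the 95th percentile of probe sets whose IDs are not of soybean, 81.8 ± 7.0 at baseline, 86.2 ± 11.9 at the optimum, 125 ± 28.1 at 20% and 112 ± 30.8 at 30% inhibition. A control transcript's 3′ minus 5′ log2 signal was 0.07 ± 0.25 at baseline, 0.80 ± 0.16 at the optimum, 0.89 ± 0.16 at 20% and 0.83 ± 0.13 at 30% inhibition. The part of either measure in the results was not tested beyond the fit with background as a term. Of 19 leaf marker probe sets, 16 were above background on every array, and the summed signal of the 19 ran from 370690 to 519280. Of 17 seed marker probe sets 3 were above background on every array, all Kunitz trypsin inhibitor genes, and 11 were below it on every array. Of 6 nodule and root marker probe sets, 2 were above background on every array. The summed signal of all 6 ranged from 1639 to 2517 at baseline and from 6350 to 10516 at 30% inhibition. Most of it came from NOD33, which alone ran from 1337 to 10093 over the 16 arrays, while ENOD40B ran from 149 to 388. The part of this signal in the results was not tested.

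Of the members, 31 probe sets of 8 genes passed the filter on low signals and 5 did not. LOX7 and LOX9 were the genes with probe sets that changed against baseline, and both rose. No probe set passed at the optimum against baseline, where 12.9% of all probe sets tested did, 6.63% higher and 6.26% lower. An unadjusted limma p under 0.05 was found there for 3 of 31 members and for 26% of all probe sets. At 20% inhibition 3 of 31 were higher and none was lower, against 35.6% of all probe sets called, 17% higher and 18.6% lower. At 30% inhibition 3 of 31 were again higher and none was lower, against 34.7% of all probe sets called, 16.9% higher and 17.7% lower. From the optimum to 20% inhibition 1 of 31 passed, a probe set of VSPB, against 16.6% of all. From the optimum to 30% inhibition 0 of 31 passed by limma, against 14% of all. An unadjusted limma p under 0.05 was found there for 4 of 31, against 28% of all. Between 20% and 30% inhibition 0 of 31 passed, and limma called 0% of all probe sets. None of the 31 had an unadjusted limma p under 0.05 there, against 3.91% of all. The F-test for any difference among the 4 states passed 2 of 31 members and 35.5% of all probe sets.

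The members' median log2 change was 0.07 at the optimum, 0.15 at 20% and 0.07 at 30% inhibition, where the median over all probe sets tested was -0.00, -0.01 and -0.01. Their changes at 20% inhibition ran from -0.55 to 0.71. Many members are among the brightest features of the leaf, and 17 of the 31 had a mean signal above 10000. Of the 826 probe sets that bright, 47.3% were called at 20% inhibition, and among the members that bright only probe sets of LOX7 were. Above 40000, where 7 of the 101 probe sets were members, 14.9% were called at 20% and 9.9% at 30% inhibition. No member that bright was called in either state.

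**Figure D1:**
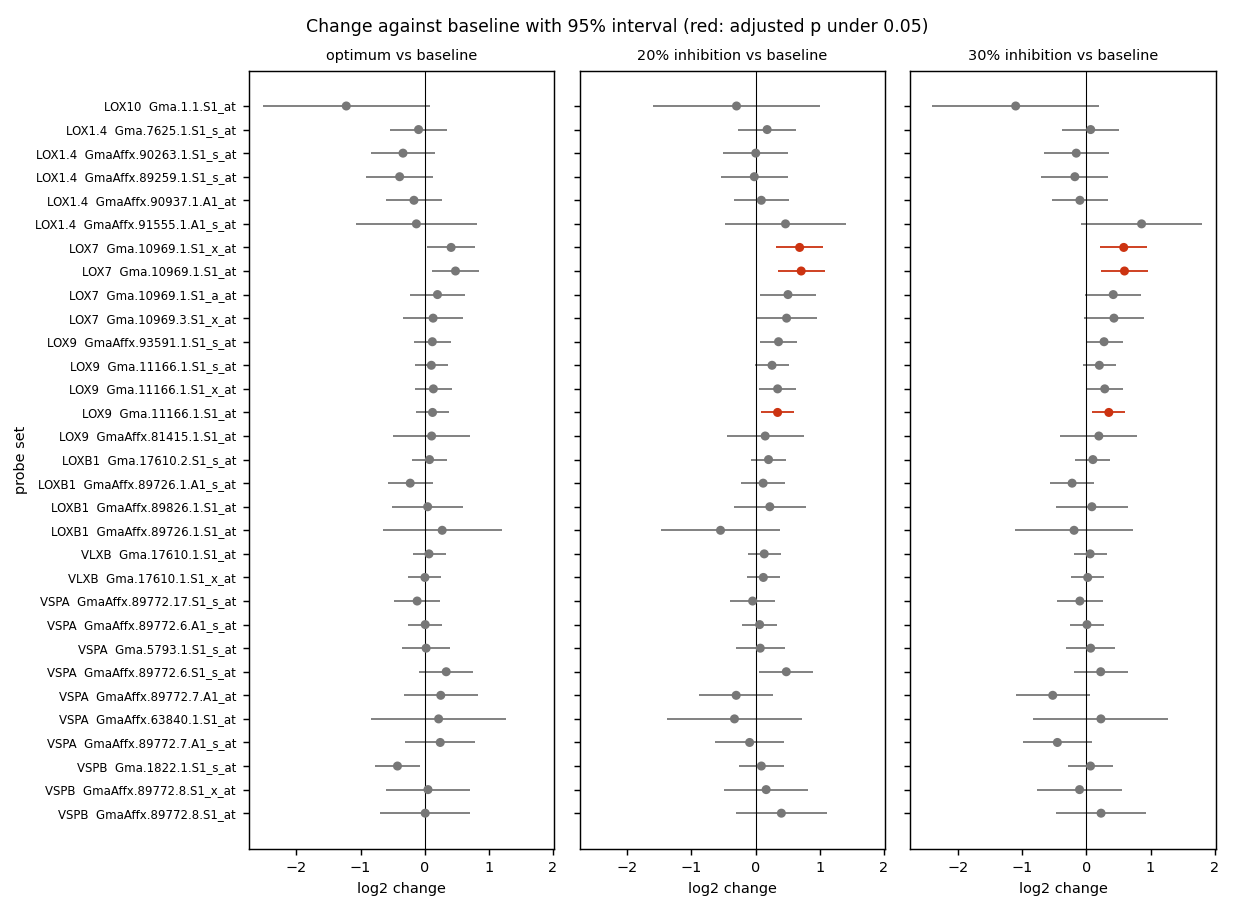
Log2 change of each of the 31 tested probe sets against baseline (horizontal axis, points) with its 95% interval (lines), in 3 panels for the optimum, 20% and 30% inhibition. Red marks an adjusted p under 0.05: none at the optimum, and in the other panels the same 2 probe sets of LOX7 and 1 of LOX9; LOX10 has the widest intervals at the optimum.

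LOX7, a lipoxygenase of vegetative tissue, gave the largest changes that passed. At its brightest probe set, with an ID ending in S1_x_at, the baseline signals were 23940, 17217, 29040 and 17084, and those at the optimum were 32388, 25778, 33924 and 22684. They were 39130, 31141, 30719 and 36766 at 20% inhibition, and 33426, 30182, 27626 and 36867 at 30% inhibition. Every array at 20% inhibition was thus above every baseline array, while at 30% inhibition the lowest array fell under the highest baseline array. The state means were 21820 ± 5781, 28694 ± 5342, 34439 ± 4169 and 32025 ± 4007. The log2 rise was 0.69 ± 0.17 at 20% (adjusted p = 0.0055 in limma) and 0.58 ± 0.17 at 30% inhibition (adjusted p = 0.0159). At the optimum the log2 difference was 0.41 ± 0.17, which did not pass (adjusted p = 0.140).

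A second LOX7 probe set, of mean signal 29074 over all arrays, gave the same picture. Its signal was 21264 ± 5583 at baseline, 29291 ± 5091 at the optimum, 34198 ± 4339 at 20% and 31542 ± 4482 at 30% inhibition. The rise at 20% inhibition was 0.71 ± 0.17 on the log2 scale, a fold of 1.64 with a 95% interval of 0.35 to 1.08 in log2 (adjusted p = 0.0041 in limma), and the groups did not overlap. At 30% inhibition it was 0.59 ± 0.17, a fold of 1.51 (adjusted p = 0.0136), with 1 baseline array, replicate 3 at 28625, above the lowest array. The optimum lay between, with a log2 difference of 0.48 ± 0.17 that did not pass (adjusted p = 0.0812). The F-test over the 4 states gave LOX7 an adjusted p of 0.0163 at this probe set and 0.0211 at the brightest one. No step between warmer states passed, and the log2 difference from the optimum to 20% inhibition was 0.23 ± 0.17, with a 95% interval of -0.14 to 0.60.

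The other LOX7 probe sets lay on the same side of baseline without passing. The one of mean signal 27467 had log2 differences of 0.20, 0.51 and 0.42 at the optimum, 20% and 30% inhibition, with adjusted p of 0.604, 0.0647 and 0.128 in limma. The one of mean signal 27145 had 0.13, 0.48 and 0.43, with adjusted p of 0.102 at 20% and 0.150 at 30% inhibition. Both read optimum replicate 4 low, at 17344 and 14919, where the 2 probe sets that passed read 22684 and 24137. IDs that end in s_at, x_at or a_at mark probe sets whose probes may bind more than 1 transcript, so a value may include relatives of the gene named.

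LOX9 is another lipoxygenase expressed in the leaf, and its changes were smaller and more even. At the LOX9 probe set of mean signal 7338 the baseline signals were 6594, 6558, 7047 and 5184, and those at the optimum were 8408, 6123, 6536 and 6601. They were 8388, 8572, 7955 and 7166 at 20% inhibition and 8606, 7492, 7182 and 8992 at 30% inhibition. Every array of both inhibited states lay above every baseline array, and the optimum overlapped both sides. LOX9 rose by 0.34 ± 0.12 in log2 at 20% inhibition (fold 1.27, adjusted p = 0.0372 in limma) and by 0.35 ± 0.12 at 30% inhibition (fold 1.27, adjusted p = 0.0351). The call at 20% inhibition was kept in 17 of 27 alternative analyses and that at 30% inhibition in 21 of 27.

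The 4 other LOX9 probe sets did not pass, although all had a positive log2 difference at 20% and at 30% inhibition. The brightest gave 22530, 25376, 28692 and 19941 at baseline, 30962, 23928, 26055 and 23624 at the optimum, 34198, 29231, 30520 and 28971 at 20% and 26191, 27918, 26086 and 36763 at 30% inhibition. Its arrays at 20% inhibition did not overlap the baseline, with a log2 difference of 0.36 ± 0.14 (adjusted p = 0.0508). Those of mean signal 19557 and 24342 differed there by 0.34 ± 0.14 (adjusted p = 0.0588 in limma) and 0.26 ± 0.12 (adjusted p = 0.116). The dimmest LOX9 probe set spread more, from 1523 to 3350 over the baseline arrays alone.

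LOX10, a lipoxygenase with 1 probe set, spread more between plants than the other tested genes did at their brightest probe sets. Its baseline signals were 2364, 5626, 5199 and 3315, and those at the optimum were 3634, 1566, 2572 and 529. They were 3861, 2371, 3343 and 3290 at 20% inhibition, and 5000, 2624, 440 and 1864 at 30% inhibition. All states overlapped, and the low values of 529 and 440 came from optimum replicate 4 and 30% inhibition replicate 3, both still above the background of their array. The means were 4126 ± 1546, 2075 ± 1333, 3216 ± 620 and 2482 ± 1907. The highest plant exceeded the lowest 2.38-fold at baseline, 6.87-fold at the optimum, 1.63-fold at 20% and 11.4-fold at 30% inhibition.

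No LOX10 difference passed. The log2 difference was -1.22 ± 0.62 at the optimum (95% interval -2.53 to 0.08, adjusted p = 0.226 in limma), -0.30 ± 0.62 at 20% (-1.60 to 1.01, adjusted p = 0.743) and -1.10 ± 0.62 at 30% inhibition (-2.41 to 0.20, adjusted p = 0.184). Each interval holds 0, so no direction is given for LOX10. Without optimum replicate 4 the log2 difference at the optimum was -0.67, and without 30% inhibition replicate 3 that at 30% inhibition was -0.42. With array background as a term the latter was -0.28. The within-state SD of its log2 signal was 1.01, at the 95.4th percentile of all probe sets tested, whose median was 0.30. By state the SD was 0.59, 1.21, 0.30 and 1.48, highest at 30% inhibition and lowest at 20%. Each SD comes from 4 arrays, and those at the optimum and at 30% inhibition include the low values of 529 and 440. Differences in spread between states were not tested.

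LOX1.4 varied between plants in part with LOX10. At its brightest probe set the signals were 18389, 19344, 16441 and 13323 at baseline, 22274, 17844, 14277 and 10553 at the optimum, 21328, 18365, 18158 and 18088 at 20% and 20603, 16696, 12153 and 22393 at 30% inhibition. Optimum replicate 4 and 30% inhibition replicate 3 were again the lowest plants of their states, and all states overlapped. The log2 differences from baseline were -0.09 ± 0.21, 0.18 ± 0.21 and 0.07 ± 0.21, with 95% intervals from -0.54 to 0.35, from -0.27 to 0.63 and from -0.38 to 0.51. Its other 4 probe sets had mean signals from 145 to 16007 and none passed against baseline. The brightest of these gave 14748, 20282, 17553 and 15725 at baseline, 20476, 14032, 13446 and 8379 at the optimum, 20481, 16955, 17281 and 13894 at 20% and 17875, 14427, 10058 and 20495 at 30% inhibition. The same optimum and 30% inhibition plants were lowest there too, and at the probe set of mean signal 4871. At the one of mean signal 481.5, 30% inhibition replicate 2 was lowest at 383, with replicate 3 at 428. At the dimmest, near the background, optimum replicate 4 was the highest of its state at 170.

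**Figure D2:**
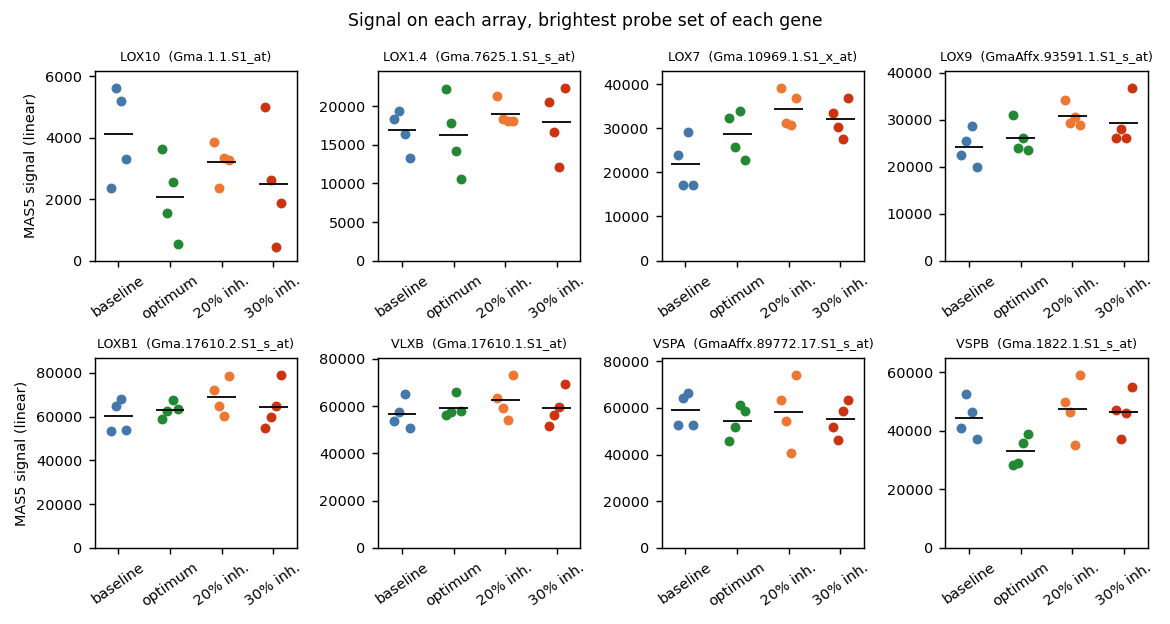
MAS5 signal (vertical axis, linear, own scale from 0 in each panel) on each of the 16 arrays for the brightest probe set of the 8 tested genes, grouped by state; points are arrays and bars are state means. LOX7 at 20% inhibition lies above all its baseline arrays, LOX10 spreads from 440 to 5000 at 30% inhibition, and VSPB is lowest at the optimum with a mean of 33044.

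LOXB1 and VLXB, lipoxygenases of the leaf, were close to the top of each array's range and nearly level over the states. The brightest LOXB1 probe set gave 53447, 65017, 68097 and 53690 at baseline, 58812, 62491, 67480 and 63292 at the optimum, 72284, 65028, 60367 and 78522 at 20% and 54884, 59943, 64720 and 78933 at 30% inhibition. All states overlapped, and the means ran from 60063 ± 7604 at baseline to 69050 ± 7995 at 20% inhibition. The log2 differences from baseline were 0.08, 0.20 and 0.10, each ± 0.13, and the widest upper bound was 0.47 at 20% inhibition (adjusted p = 0.774, 0.239 and 0.586 in limma).

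The brighter VLXB probe set had means of 56769 ± 6232, 59362 ± 4410, 62477 ± 7997 and 59209 ± 7556. Its log2 differences from baseline were 0.07, 0.14 and 0.06, each ± 0.12, with 95% intervals of -0.19 to 0.33, -0.12 to 0.39 and -0.20 to 0.32. On average over the arrays the LOXB1 probe set stood at 86.9% and that of VLXB at 80.6% of the array's brightest signal. Whether signals this high still follow the amount of RNA was not tested. The other LOXB1 probe sets had means of 18048, 617 and 163, and none passed against baseline.

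At their brightest probe sets the storage proteins VSPA and VSPB overlapped between baseline and inhibition. These probe sets averaged 76.9% and 58.0% of the array's brightest signal. The brightest VSPA probe set gave 52695, 64351, 66522 and 52651 at baseline and 45986, 51680, 61493 and 58767 at the optimum. It gave 63479, 54616, 40770 and 74059 at 20% inhibition, the widest range of the 4 states, and 52020, 46202, 58566 and 63552 at 30% inhibition. The means were 59055 ± 7422, 54482 ± 7013, 58231 ± 14095 and 55085 ± 7574. The log2 differences from baseline were -0.12, -0.05 and -0.10, each ± 0.17, with 95% intervals from -0.47 to 0.24, from -0.40 to 0.31 and from -0.46 to 0.25 (adjusted p = 0.727, 0.858 and 0.678 in limma).

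Of the 31 tested members, a probe set of VSPB alone passed limma's threshold between warmer states. There the baseline signals were 41071, 52454, 46521 and 37146, and those at the optimum were lower, 28209, 29187, 35944 and 38836, with 1 array inside the baseline range. They were 49828, 46333, 35131 and 59039 at 20% and 47039, 37218, 46154 and 55016 at 30% inhibition, where each state had 1 array inside the range of the optimum. The means were 44298 ± 6659, 33044 ± 5171, 47583 ± 9881 and 46357 ± 7281. From the optimum to 20% inhibition VSPB rose by 0.51 ± 0.17 in log2 (95% interval 0.16 to 0.87, adjusted p = 0.0450 in limma).

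The VSPB rise sat at the edge of the threshold. It was kept in 12 of 27 alternative analyses, with log2 values from 0.40 to 0.73, and was lost with the replicate number as a block (adjusted p = 0.0649). The difference between baseline and the optimum was -0.42 ± 0.17 and did not pass (adjusted p = 0.113), but did with quantile-normalized arrays (-0.52, adjusted p = 0.0078). The difference from the optimum to 30% inhibition was 0.49 ± 0.17 (adjusted p = 0.0631).

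Probe sets that the annotation gives to the same storage protein gene did not agree. For VSPA, 3 had mean signals of 56713, 54226 and 52037, 4 had means of 1727, 366, 301 and 241, and 1 was below background on 15 of 16 arrays. The VSPA probe set of mean signal 1727 differed from baseline by 0.48 ± 0.20 at 20% inhibition (adjusted p = 0.0713 in limma). The one of mean signal 366 gave -0.78 ± 0.27 from the optimum to 30% inhibition (adjusted p = 0.0680) and the one of mean signal 241 gave -0.70 ± 0.26 (adjusted p = 0.0823). For both of these dim VSPA probe sets the arrays of the 2 states did not overlap. No share of probe sets without overlap over the whole array is given, here or for LOX7 and LOX9. The remaining VSPB probe sets had means of 164 and 148, near the background.

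The seed isozymes were at or near the background. LOX1.1 was below background on 14 of 16 arrays, with signals from 9.26 to 150.1, and LOX2 was below it on 14 arrays, with signals from 2.31 to 168. The LOX3 probe sets were below background on 16 and on 15 arrays. None of these was tested, and no fold is given for them.

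Within a state, the signals of some members went up and down together from array to array. The probe sets of VSPA, VSPB and LOXB1 compared here have IDs ending in s_at, so their probes may bind transcripts of relatives. The part of shared transcripts in the r was not tested. Deviations of the log2 signal from the state mean correlated over the 16 arrays with r = 0.93 between VSPA and VSPB (Spearman's rho 0.93), with r = 0.84 between LOXB1 and VSPA (rho 0.90) and with r = 0.95 between LOXB1 and VLXB (rho 0.98). These r are descriptions over 28 pairs of genes, and the points share the array, its scaling and its brightness. The deviations of an array's brightest signal moved with them: r was 0.94 for LOXB1, 0.97 for VLXB, 0.81 for VSPA and 0.65 for VSPB. After quantile normalization, which gives all arrays the same distribution, the pair VSPA and VSPB had r = 0.86 and the pair LOXB1 and VSPA 0.72, while LOXB1 and VLXB had 0.18. The arrays farthest apart for VSPA were 20% inhibition replicates 3 and 4, at 40770 and 74059, and without those 2 arrays the r with VSPB was 0.89.

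LOX10 did not share this pattern. Its r was -0.14 with VSPA and -0.12 with VSPB, and -0.17 with the array's brightest signal. With LOX1.4 it was 0.73, and 0.74 after quantile normalization. Without 30% inhibition replicate 3 and optimum replicate 4, the r between LOX10 and LOX1.4 over the other 14 arrays was 0.39, and rho over all 16 was 0.48, so the relation rests in large part on those 2 arrays. LOX10 had r = 0.46 with LOX7 and 0.40 with LOX9, which became 0.64 and 0.55 after quantile normalization. LOX1.4 had r = 0.50 with LOX7 and 0.62 with LOX9, which became 0.61 and 0.72. Between LOX7 and LOX9 r was 0.65, and 0.58 after quantile normalization.

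**Figure D3:**
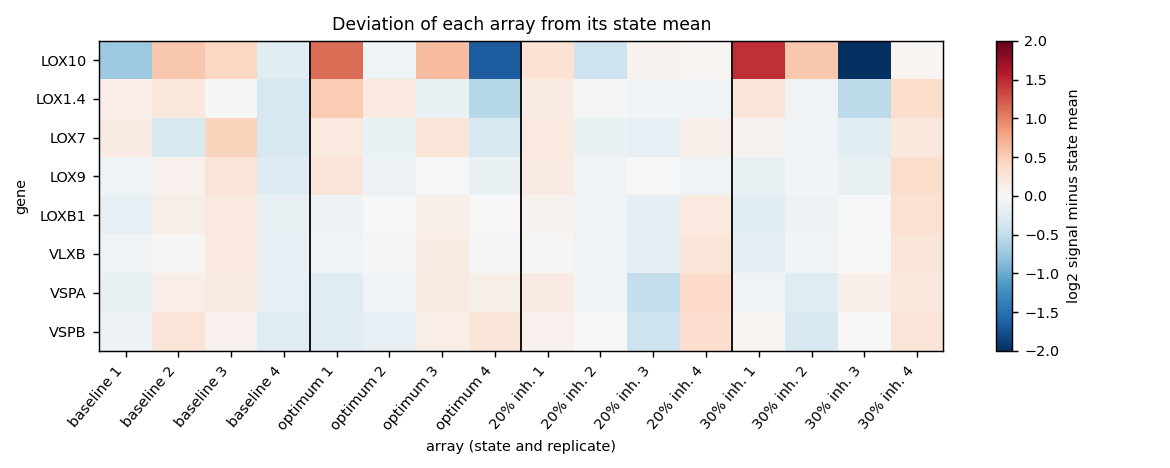
Log2 signal minus the state mean (colour) for the brightest probe set of each of the 8 tested genes (rows) on each of the 16 arrays (columns, vertical lines between states). LOX10 has the strongest colours, lowest on optimum replicate 4 and 30% inhibition replicate 3, and the rows of LOXB1, VLXB, VSPA and VSPB share their pale pattern.

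**Figure D4:**
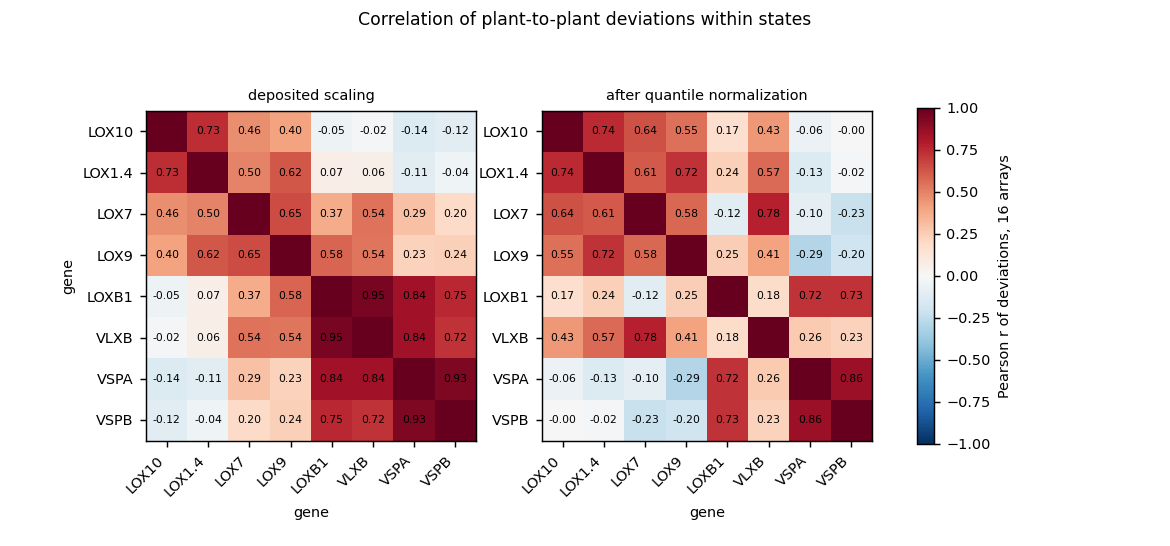
Pearson r of the deviations from the state means over 16 arrays between the brightest probe sets of the 8 tested genes (rows and columns, colour from -1 to 1), from the deposited signals and after quantile normalization. VSPA with VSPB stays high (0.93 and 0.86), and LOXB1 with VLXB goes from 0.95 to 0.18.

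Among 824 other genes with a product name, those most like LOX10 over the 16 arrays were AOX3, an alternative oxidase (r = 0.74), STF2 (0.71) and SEOS (0.70), and each r differed by at most 0.01 after quantile normalization. Without optimum replicate 4 and 30% inhibition replicate 3, the r over the other 14 arrays were 0.33, 0.63 and 0.46, and STF2 was below background on 7 of 16 arrays. Those most like VSPA were VLXC (0.86), another vegetative lipoxygenase whose symbol the rule did not take, PRX2B (0.82) and EDS5 (0.81), with r of 0.79, 0.67 and 0.66 after quantile normalization. Those most like LOXB1 were CAB3, a chlorophyll-binding protein (0.94), PRP3 (0.93) and PSAD, a photosystem I subunit (0.89), whose r became -0.00, -0.22 and 0.01. At the probe sets compared, 1 per gene, none passed the threshold in any contrast by limma, and their other probe sets are not described.

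From a list of the remaining oxylipin and jasmonate genes, 17 probe sets of 9 genes were tested. At the optimum 4 were higher and 2 lower than at baseline, where 12.9% of all probe sets tested were called. At 20% inhibition 4 were higher and 4 lower, against 35.6% of all called, and at 30% inhibition 4 were higher and 7 lower, against 34.7%. Their median log2 change was -0.36, -0.50 and -0.59, where that of all probe sets was -0.00, -0.01 and -0.01. HPL is named from a RefSeq synonym for hydroperoxide lyase, but its gene also carries the synonym CYP74A2, of the subfamily of allene oxide synthases, so its reaction is not settled here. HPL rose from 1272 ± 134 at baseline to 2364 ± 420 at the optimum, 3497 ± 232 at 20% and 3282 ± 339 at 30% inhibition. The log2 rise of HPL was 0.88 ± 0.13, 1.46 ± 0.13 and 1.37 ± 0.13 (adjusted p = 2.18e-04, 2.49e-07 and 5.32e-07 in limma).

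AOS2, an allene oxide synthase, fell by 0.63 ± 0.18, 0.78 ± 0.18 and 0.98 ± 0.18 in log2 at the optimum, 20% and 30% inhibition (adjusted p = 0.0290, 0.0027 and 4.55e-04 in limma). AOC4, an allene oxide cyclase, fell by 1.26 ± 0.28, 1.67 ± 0.28 and 1.52 ± 0.28. Both AOC3 probe sets fell at 20% and 30% inhibition, by 1.93 at 20% and 1.59 at 30% inhibition at the one with an ID ending in S1_a_at, and by 1.38 at 30% inhibition at the other. AOC2 fell by 0.59 at 30% inhibition (adjusted p = 0.0298), and 2 JAZ1 probe sets, of a repressor of jasmonate responses, fell there by 0.89 and 0.93. COI1, the F-box protein of the jasmonate receptor, rose in all 3 warmer states at 3 of its 5 tested probe sets, by 0.75, 1.06 and 1.05 in log2 at one of them. The other 2 tested COI1 probe sets did not pass in these contrasts, nor did AOS1 or AOC6. In the fit with the array background as a term, AOC3 lost the calls at 20% inhibition and 1 of those at 30%, and JAZ1 lost both of its calls.

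**Figure D5:**
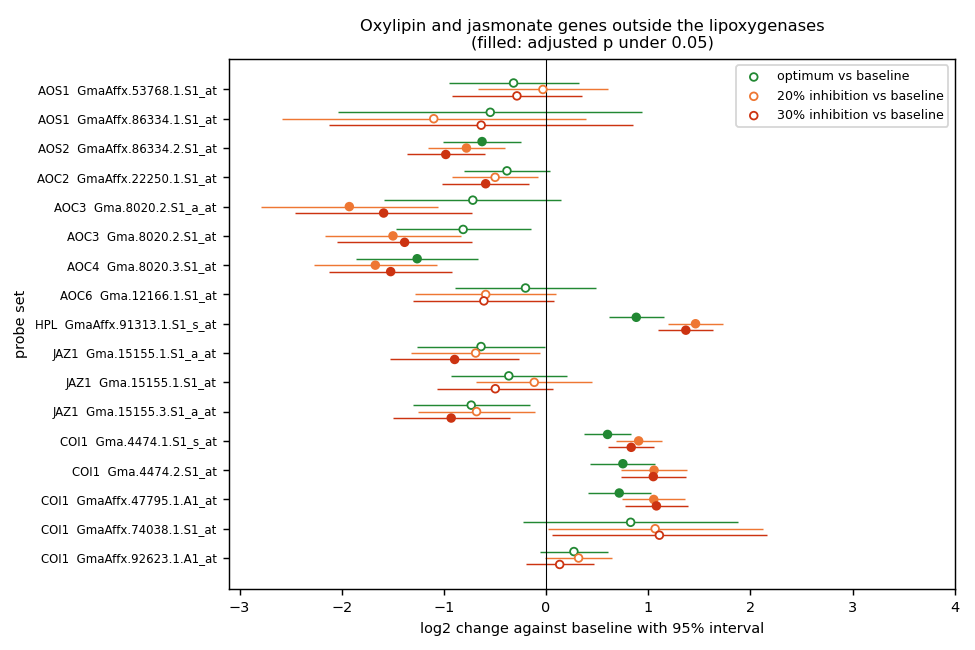
Log2 change against baseline (horizontal axis) with 95% interval for the 17 tested probe sets of other oxylipin and jasmonate genes; colours are the optimum, 20% and 30% inhibition, and filled points have an adjusted p under 0.05. The points of HPL and COI1 lie right of 0 in all 3 states, filled for HPL and 3 probe sets of COI1, and those of AOC3, AOC4 and AOS2 lie left of it, open for AOC3 at the optimum.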

How the data were processed

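Per the submitters' processing notes the authors made linear MAS5 signal intensities; version and settings were not stated there. Total RNA of 16 leaf samples was measured, 4 per state, and the number of arrays limits the precision. Leaving out the highest and lowest 2% of intensities, each array had a mean of 500.0, so the deposited arrays share a scale. Gene names came from the platform annotation, and all 11 genes were found by their identifiers in RefSeq's table of Glycine_max_v4.0. No build is given for the array, so no positions are printed.

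Intensities entered as log2 values, with nothing added and no normalization between arrays. Of 61170 probe sets, 135 controls were left out, and the 30517 with a mean log2 signal above 6.08, a signal of 67.6, were tested two-sided with limma 3.58.1 in R 4.3.3. The fit had a mean per state, a prior variance following the mean signal, and 16.4 total degrees of freedom, and the procedure was tested on simulated data. Background used 23350 probe sets with PsAffx or HgAffx IDs, taken not to target soybean. The text describes every member, for LOX10, LOXB1 and VSPA the 3 genes most alike over the arrays, and the pathway genes past the threshold. Members and lists were chosen with earlier results of these data known. Deviations of same-numbered replicates had a mean r of 0.01 over 24 pairs (7 over 0.1). Those of differently numbered replicates had -0.004 over 72 pairs (13 over 0.1), and numbers were not taken as pairs. Replicate 3 had the highest background of each warmer state (100, 163 and 149), and whether same-numbered arrays were handled together was not tested. Alternatives changed the pseudocount, normalization, filter, variance trend, weights, background term and arrays included.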

Additional observations from a re-analysis of the deposited data

Results flagged for a closer look

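Among 124 groups of 4 arrays, 4 held an array far from the others on the log2 scale, where chance marks about 5% of groups. The brightest LOX1.4 probe set read 21328 on 20% inhibition replicate 1 and 18088 to 18365 on the other arrays of that state. The dimmest LOX1.4 probe set read 170 on optimum replicate 4 and 77.4 to 82.4 on the others, which is near the background. The VSPA probe set of mean signal 241 read 413 on 20% inhibition replicate 4 and 178 to 194 on the others. The LOXB1 probe set of mean signal 617 read 979 on baseline replicate 3 and 449 to 489 on the others.

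A probe set that the annotation gives jointly to VLXB, LOX7 and LOXB1 was in no comparison. Its signal ran from 28590 to 46288 over the 16 arrays and was at least 201 times the background of its array. Its baseline range was 29168 to 42310 and its range at 30% inhibition was 28590 to 40633.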

How the results depend on the processing

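The LOX7 probe set of mean signal 29074 kept its calls in 27 of 27 alternatives, with log2 values from 0.54 to 0.90 at 20% and from 0.48 to 0.75 at 30% inhibition. The brightest LOX7 probe set kept its call at 30% inhibition in 24 of 27. It lost it without baseline replicate 2 or 4 (0.48 each) or 30% replicate 4 (0.51). LOX9 lost both calls with no filter (adjusted p = 0.0732 and 0.0711 in limma), with no variance trend, and without baseline replicate 1 (0.37 in log2 at both) or 4 (0.25 and 0.26). It lost the one at 20% with background as a term (0.43), with only the states compared (0.34) and without replicate 1, 2 or 3 of that state (0.32, 0.31 and 0.35), and the one at 30% without replicate 1 or 4 of that state (0.32 and 0.30). Without the 3 arrays of highest background, chosen after seeing the data, LOX9 differed by 0.30 at 20% inhibition (adjusted p = 0.174). VSPB from the optimum to 20% inhibition lost its call without baseline or 30% replicate 1 or 3 (0.51 each). It lost it without optimum replicate 1, 2 or 3 (0.44, 0.46 and 0.56) or 20% replicate 1, 2 or 4 (0.48, 0.52 and 0.40). LOX10 at 20% inhibition, not called, had the opposite sign with background as a term (0.87).

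The count of members called at the optimum was 1 of 31 after quantile normalization, against 12.4% of all probe sets. At 20% inhibition it was 5 of 23 with the upper-quartile filter (50% of all) and 5 of 31 with array weights (38.7%). It was 0 from the optimum to 20% with no filter, no variance trend, background as a term, replicate block or only the states compared. There 6.52% to 15.3% of all passed. From the optimum to 30% it was 1 after quantile normalization (13.7%) and 1 with the upper-quartile filter (24.6%), both higher. It was 1 without the 3 arrays of highest background (13.3%) and 2 with only the states compared (14.4%), all lower. Array weights gave 3 (17.4%), 2 of them lower. The F-test called 1 with background as a term (22.8%) and 4 with array weights (40.9%). The causes were not tested. The replicate block changed no other count of calls by over 1.5 times.

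Leaving out 1 array at a time gave 0 to 2 calls at the optimum, 2 to 6 at 20%, 1 to 3 at 30% inhibition, 0 to 1 from the optimum to 20%, 0 to 3 from the optimum to 30%, 0 to 0 from 20% to 30% inhibition, and 0 to 4 by the F-test. Without baseline replicate 3 there were 2 calls at the optimum (8.98% of all) and 6 at 20% inhibition (31.1%). Without optimum or 30% replicate 4 there were 5 at 20% (34.6% and 35.4%). Without baseline or 30% replicate 4 there was 1 at 30% (31.9% and 30.5%). From the optimum to 30% there were 3 without 20% replicate 4 (14.9%). There was 1 each without baseline replicate 1, 20% replicate 3 or 30% replicate 2 or 3 (10.3% to 15.7%). The F-test called 0 without baseline replicate 2 or 4 (32.2% and 32.8%), and 4 without 20% replicate 3 (35.9%).

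Of 97 member changes followed, 79 were never past the threshold and 45 had the opposite sign in at least 1 alternative. Of 25 pathway changes past it, 18 stayed past it throughout and 0 turned sign. AOC2 at 30% inhibition lost its call without baseline replicate 2, 3 or 4 (-0.53, -0.49 and -0.59) or 30% replicate 1, 2 or 4 (-0.49, -0.58 and -0.55). AOS2 at the optimum lost it without baseline replicate 2 or 3 (-0.58 and -0.60) or optimum replicate 2, 3 or 4 (-0.64, -0.65 and -0.58). One JAZ1 probe set lost it without baseline replicate 3 or 4 (-0.87 and -0.78) or 30% replicate 2, 3 or 4 (-0.79, -0.87 and -0.83).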
